A study of Mus musculus with 9 samples.

Results

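Mouse eggs lacking Dicer were set against mouse eggs lacking Dgcr8. Arrays were chosen by the genotype in their labels, which gives 3 Dicer knockout and 3 Dgcr8 knockout arrays, 6 of the 9 arrays of the study. The other 3 arrays are of wild-type eggs. They entered the estimate of the spread, and their values are given for reference. All eggs are labelled C57BL/6, at metaphase II, and were collected 16 h after human chorionic gonadotropin (hCG) from females primed with pregnant mare serum gonadotropin (7.5 IU) before the hCG dose (7.5 IU). The sources used here do not give how each gene was removed, in which cells, how many eggs and females stand behind an array, or the females' age.

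MicroRNAs are made in steps. Drosha and its RNA-binding partner Dgcr8 cut a short hairpin out of a long primary microRNA transcript, and Dicer then cuts the hairpin into the mature microRNA. Dicer also cuts long double-stranded RNA into endogenous small interfering RNAs (endo-siRNAs), a step that needs no Dgcr8. Mouse oocytes are known for abundant endo-siRNAs, formed from hairpin transcripts and from pairs of genes and pseudogenes, which lower the transcripts they match. Both genotypes lack canonical microRNAs, so the comparison asks what differs in eggs when Dicer is lost beyond the loss of Dgcr8-dependent microRNAs.

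Signal is given on the log2 scale of the deposited table, in which 1 unit is a 2-fold step, and a difference is always Dicer knockout minus Dgcr8 knockout. A probe set, the group of array probes that reads 1 transcript, was tested if it had 1 gene symbol and reached a signal of 4 in at least 3 of the 6 knockout arrays. Of 21789 probe sets with 1 symbol, 18818 passed, for 17248 genes. At the edge of this filter, the third highest value was 4.0001 for 4933402J07Rik, which was kept, and 3.999 for Amtn, which was not. A probe set was called at a limma adjusted p under 0.05 (Benjamini-Hochberg over all 18818). The p-values measure the spread between arrays labelled as biological replicates.

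Both targeted genes read lower in their own knockout. Dgcr8 was 5.47, 5.98 and 5.70 in the Dgcr8 knockout arrays, 8.37, 8.28 and 8.72 in the Dicer knockout arrays, and 8.85, 9.05 and 8.97 in wild-type eggs. Dicer1, which encodes Dicer, was 11.65, 11.63 and 11.75 in the Dgcr8 knockout and 10.81, 10.77 and 10.57 in the Dicer knockout, against 11.66 to 11.67 in wild-type eggs. The differences were 2.74 ± 0.15 (SE) for Dgcr8 and -0.96 ± 0.06 for Dicer1, with limma adjusted p of 5.324e-06 and 1.157e-05. Neither gene's knockout groups overlapped, and the remaining Dicer1 signal was still among the high ones of the array. The sources used here do not give which part of a transcript its probes read.

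Many transcripts separated the knockouts, and large differences were mostly gains in the Dicer knockout. Of the 18818 probe sets, 2549 (13.5%) were called, with 1123 (5.97%) higher without Dicer and 1426 (7.58%) lower. Without Dgcr8 knockout array 1 or 3 the count of lower calls was 856 or 943. At 2-fold or more the balance turned to 380 higher (2.02%, 312 genes) and 108 lower (0.574%, 105 genes). At 4-fold or more it was 71 against 5, and at 8-fold or more 14 against 2. The 3 arrays of each knockout did not overlap in 4984 probe sets (26.5%), and 14 called probe sets had overlapping groups. The median difference over all tested probe sets was -0.02, and signals normalized between arrays cannot show a change shared by all transcripts. Raising the filter from a signal of 4 to 6 left 11081 probe sets, with 1168 called higher and 1612 lower. The share called was thus larger at higher signal, and the 13.5% set beside the gene lists below was not matched to their signal.

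**Figure D1:**
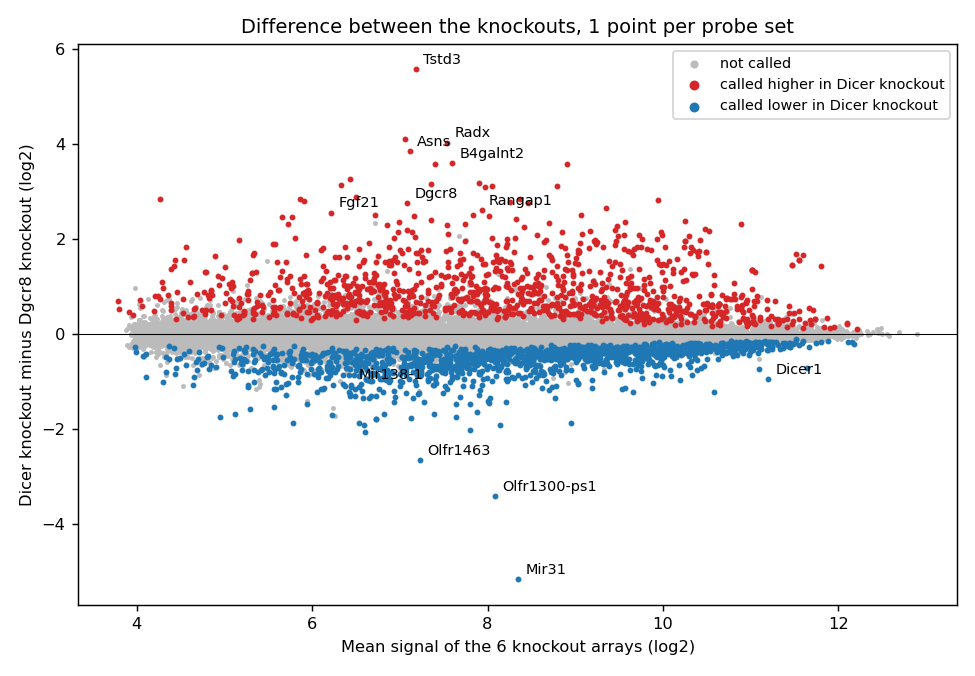
Each point is 1 of the 18818 probe sets tested, with the mean log2 signal of the 6 knockout arrays on the horizontal axis and the Dicer knockout minus Dgcr8 knockout difference (log2) on the vertical axis; red and blue points were called higher (1123) and lower (1426). Tstd3 lies highest at 5.56 and Mir31 lowest at -5.17, and small differences are called mainly at high signal.

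For nearly all of the large differences, the wild-type value lay beside the Dgcr8 knockout. Of the 488 probe sets called at 2-fold or more, 479 (98.2%) had a wild-type mean closer to the Dgcr8 knockout mean. The 9 others, named here after their values were seen, were Dgcr8 itself, Mir31, Mir138-1, Adamts9, Nup210l, Timm10, Pstk, Kif1c and 3010003L21Rik. The calls of Adamts9, Timm10, Pstk and Kif1c were lost without Dgcr8 knockout array 1 or 2, and, Timm10 aside, also without Dicer knockout array 1 and at least 1 more array. Over all tested probe sets the correlation between arrays had a median of 0.9942 between Dgcr8 knockout and wild-type arrays, 0.9935 within the Dgcr8 knockout and 0.992 within the Dicer knockout. Between the knockouts it was 0.9796. These correlations run across probe sets, which are not independent replicates.

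The largest gain was in Tstd3, a small gene named for a thiosulfate sulfurtransferase (rhodanese) domain. Its signal was 4.68, 4.19 and 4.33 in the Dgcr8 knockout arrays and 10.16, 9.65 and 10.08 in the Dicer knockout arrays, against 4.78, 5.06 and 4.32 in wild-type eggs. The difference was 5.56 ± 0.21 (47.3-fold; limma adjusted p = 1.019e-06). Tstd3 was thus near the filter in all 6 arrays of eggs with Dicer and well above the array's median signal in the 3 without it.

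Radx, which encodes a single-strand DNA-binding protein of the replication fork, was 5.77, 5.09 and 5.74 in the Dgcr8 knockout and 9.69, 9.08 and 9.88 in the Dicer knockout. The difference was 4.02 ± 0.24 (limma adjusted p = 8.742e-06), and the groups lay far apart. Asns, the enzyme that makes asparagine from aspartate, had the next largest rise among the genes named and is described with the amino acid genes. B4galnt2, a glycosyltransferase, rose by 3.58 ± 0.20, from 5.55, 5.87 and 5.99 to 9.52, 9.10 and 9.54. Pip4p2, a phosphoinositide phosphatase, rose by 3.57 ± 0.15, from 6.94, 7.03 and 7.39 to 10.82, 10.42 and 10.82. Saxo1, a microtubule-binding protein of axonemes, rose by 3.56 ± 0.16, from 5.55, 5.64 and 5.68 to 9.31, 8.82 and 9.44. In each of these the 3 Dicer knockout arrays stood together, and wild-type eggs were at the level of the Dgcr8 knockout.

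C9, a terminal complement component of the liver, rose by 3.26 ± 0.23, from 4.99, 4.72 and 4.67 to 8.28, 8.26 and 7.64. Myot, a protein of the muscle Z-disc, rose by 3.11 ± 0.18, from 7.16, 6.99 and 7.56 to 10.34, 10.40 and 10.28. Fam3b, a secreted protein of pancreatic islets, rose by 2.88 ± 0.16, from 4.82, 5.05 and 5.31 to 7.98, 7.62 and 8.23. Limma adjusted p for these 3 lay between 5.69e-06 and 1.964e-05. Mcf2 rose by 3.15 and Hs3st3a1, a heparan sulfate sulfotransferase, by 3.14. Pla1a, a phospholipase, rose by 2.77 and Rhox10, a reproductive homeobox gene, by 2.80. Ccdc68 rose by 3.10, and the zinc finger genes Zfp869 and Zfp473 by 3.09 and 2.83.

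A pair of the leading gains touch respiration. Uqcr11, a subunit of respiratory complex III, was 5.99, 6.15 and 6.81 in the Dgcr8 knockout and 9.75, 9.59 and 9.10 in the Dicer knockout (3.16 ± 0.29, limma adjusted p = 0.0001195), and its other probe set rose by 2.28. Sdhaf4, an assembly factor of complex II, rose by 2.82 ± 0.18 on 1 probe set, from 8.26, 8.61 and 8.72 to 11.42, 11.20 and 11.43. Its other probe set differed by -0.11 (limma adjusted p = 0.6921), so the readings of Sdhaf4 disagree. Olfr1173, an olfactory receptor gene, rose by 2.84, but passed the filter on low values through the Dicer knockout alone, where it read 5.65, 5.40 and 6.00 against 2.41 to 3.28 in the Dgcr8 knockout. Probe sets that reached a signal of 4 in all 3 arrays of 1 knockout and in no array of the other numbered 15 for the Dicer knockout and 11 for the Dgcr8 knockout, and such probe sets had to differ to pass.

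At 2-fold or more, losses were fewer than gains. Olfr1300-ps1, an olfactory receptor pseudogene, was 9.82, 9.83 and 9.76 in the Dgcr8 knockout and 5.44, 7.30 and 6.38 in the Dicer knockout, a fall of 3.43 ± 0.36 (SE) on the log2 scale. Olfr1463 was 8.61, 8.34 and 8.72 against 5.99, 6.16 and 5.53, with a difference of -2.66 ± 0.19 (limma adjusted p = 2.306e-05). The Dgcr8 knockout arrays and the wild-type arrays of both genes were close, and the Dicer knockout arrays spread more widely for Olfr1300-ps1 than for Olfr1463. Another olfactory receptor gene, Olfr214, had a difference of -1.93. Over all olfactory receptor genes, 8 of 339 probe sets were called higher and 9 lower (5.01% against 13.5% of all probe sets, median 0.00). Their median signal was low, at 4.606 to 4.675 in the Dgcr8 knockout arrays, against 6.48 over all probe sets. Without Dgcr8 knockout array 1 the calls were 5 and 6, and without Dicer knockout array 1 they were 5 and 5.

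Gabra5, a GABA-A receptor subunit, was 7.66, 7.48 and 7.80 in the Dgcr8 knockout and 5.43, 6.21 and 5.08 in the Dicer knockout (-2.08 ± 0.27, limma adjusted p = 0.0008451). Lrrtm3, a synaptic adhesion protein, had a difference of -2.04 ± 0.21, with 8.81, 8.77 and 8.87 against 6.68, 7.21 and 6.46. Plek, a protein of platelets and leukocytes, had -1.93 ± 0.24, and Mrc1, the macrophage mannose receptor, had -1.75 ± 0.23. The death receptor gene Tnfrsf21 was 7.76, 7.45 and 7.68 against 6.00, 5.90 and 5.61 (-1.79 ± 0.13). Further losses were Asb12 at -1.89, Tmtc2 at -1.80, Klk15 at -1.78, Btg1b at -1.76 and Cyp1b1, a cytochrome P450, at -1.70. For all of these the knockout groups did not overlap.

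**Figure D2:**
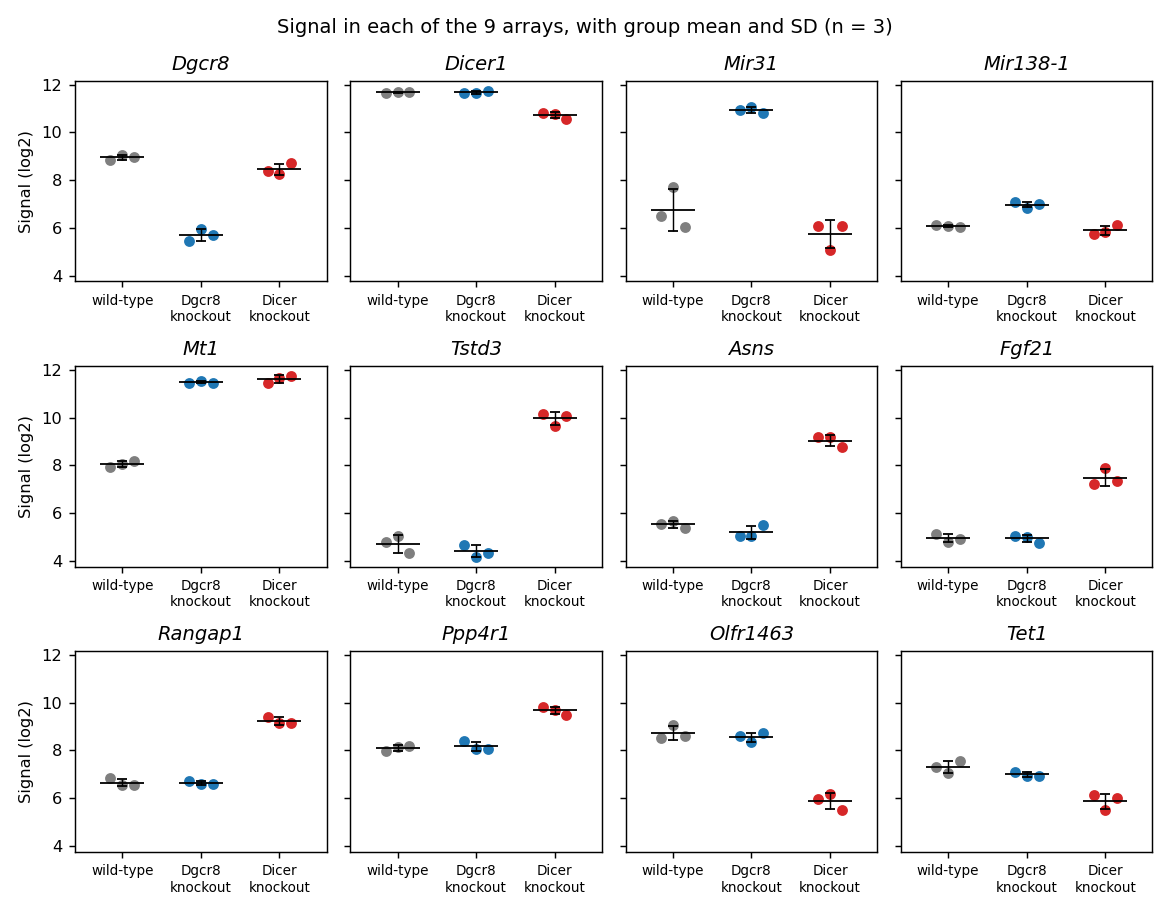
Log2 signal of 12 genes in each of the 9 arrays, with wild-type in grey, Dgcr8 knockout in blue and Dicer knockout in red; the black line and bar are the group mean and SD (n = 3). Mir31 and Mir138-1 are high in the Dgcr8 knockout alone, Mt1 is high in both knockouts, and Tstd3, Asns, Fgf21, Rangap1 and Ppp4r1 are high in the Dicer knockout alone.

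The microRNA genes Mir31 and Mir138-1 were high in the Dgcr8 knockout and near their wild-type level in the Dicer knockout. Mir31 was 10.94, 11.04 and 10.82 in the Dgcr8 knockout and 6.11, 5.08 and 6.10 in the Dicer knockout, against 6.50, 7.72 and 6.04 in wild-type eggs. The difference of -5.17 ± 0.40 (36.1-fold; limma adjusted p = 3.37e-05) was the largest fall of all probe sets tested. Mir138-1 was 7.08, 6.85 and 7.01 in the Dgcr8 knockout and 5.77, 5.83 and 6.13 in the Dicer knockout, with 6.05 to 6.12 in wild-type eggs (-1.07 ± 0.11, limma adjusted p = 0.0002235). For both genes the 3 Dgcr8 knockout arrays lay above every other array. A probe set of a microRNA gene on this kind of array can read a precursor or a longer transcript of the locus, and which of these it read was not tested.

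The mature microRNAs of these loci are shown so that the genes can be told from their copies. They are from RefSeq (GRCm38.p6), 5′ to 3′, with the seed (bases 2 to 8) in capitals, followed by miR-692, from the third called locus.
mmu-miR-31-5p: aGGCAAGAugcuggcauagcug
mmu-miR-31-3p: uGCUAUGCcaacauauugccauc
mmu-miR-138-5p: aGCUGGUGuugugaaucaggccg
mmu-miR-138-1-3p: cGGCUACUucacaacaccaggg
mmu-miR-138-2-3p: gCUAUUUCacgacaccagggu
mmu-miR-692: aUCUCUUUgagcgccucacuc
The miR-31-5p sequence lies at chr4:88910614-88910635 on the minus strand, within the span of the long noncoding RNA gene Gm49890. The miR-138-5p sequence is encoded at chr9:122682898-122682920 on the plus strand by Mir138-1, which lies in no other gene's span, and at chr8:94324312-94324334 on the plus strand by Mir138-2, which lies within the span of Nup93. Mir138-1 and Mir138-2 therefore share a mature 5p sequence and its seed, while their 3p sequences and seeds differ. Mir138-2 had a difference of -0.07 with a 95% interval from -0.23 to 0.10 (limma adjusted p = 0.6553), which does not reach the -1.07 of Mir138-1.

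Across all microRNA gene names few differences were called. Of 144 probe sets (141 genes) that passed the filter, 1 was called higher and 2 lower, or 2.08% against 13.5% of all probe sets, and the median difference was -0.01. A further 164 probe sets of microRNA gene names were below the filter. The list's median signal was low, at 5.185 to 5.458 in the Dgcr8 knockout arrays, against 6.48 over all probe sets. The low share of calls is thus not matched for signal. For 138 of the 144, the 95% interval of the difference lay within 1 of 0. The gain was Mir692-1, at 7.34, 7.68 and 7.55 against 8.83, 8.32 and 8.19 (0.93 ± 0.27, limma adjusted p = 0.04949). This call was lost when any knockout array, or wild-type array 2 or 3, was left out, with a limma adjusted p up to 0.1617. It was also lost under other settings. Without Dicer knockout array 1 there were 2 calls higher and 3 lower. Mir155 had a difference of -0.98 with an interval from -1.79 to -0.16, and did not pass the test (limma adjusted p = 0.1167).

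**Figure D3:**
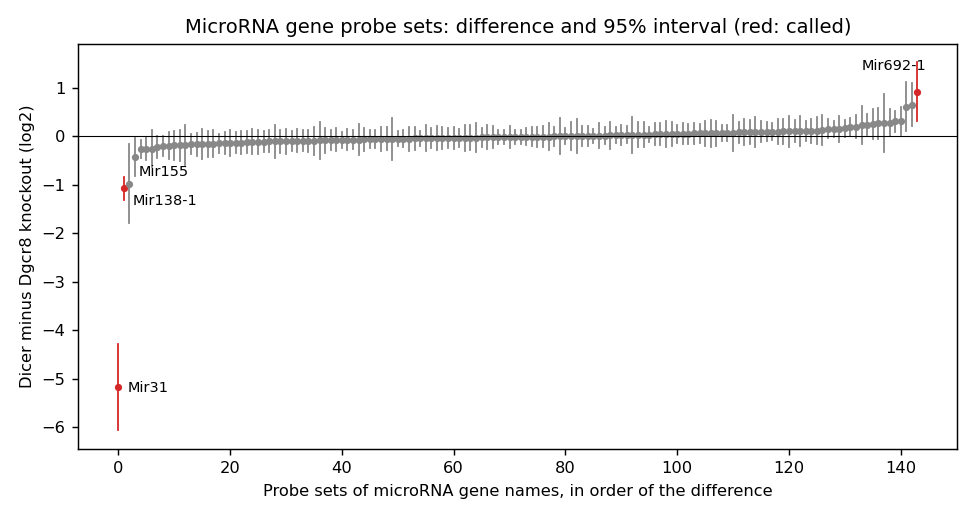
Dicer knockout minus Dgcr8 knockout difference (log2) of the 144 microRNA gene probe sets in order of size, with 95% intervals from limma; red marks the 3 called. Mir31 at -5.17 stands below all others, and most intervals cross 0.

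Reported endo-siRNA targets were higher in Dicer knockout eggs. All 6 probe sets (5 genes) of the list rose, with a median difference of 1.78, while 5.97% of all probe sets were called higher. This list comes from knowledge of oocytes without Dicer and is no independent evidence of its direction. Rangap1, which activates the GTPase of Ran, was 6.72, 6.60 and 6.59 in the Dgcr8 knockout and 9.41, 9.14 and 9.14 in the Dicer knockout (2.59 ± 0.12, limma adjusted p = 1.446e-06). Ppp4r1, a regulatory subunit of protein phosphatase 4, was 8.39, 8.05 and 8.07 against 9.82, 9.70 and 9.50 (1.50 ± 0.12). Hdac1, a histone deacetylase, rose by 2.13 and 2.06 on its 2 probe sets. Kif4, a chromosome kinesin, rose by 0.80, and Pdzd11 by 0.50. The Dgcr8 knockout values of Rangap1 and Ppp4r1 overlapped those of wild-type eggs, and none reached a Dicer knockout value.

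Genes with pseudogenes are a source of paired sense and antisense RNA in oocytes and were counted apart. Of 362 probe sets of genes with a named pseudogene, cytosolic ribosomal protein genes left out, 55 were called higher and 22 lower, which is 21.3% against 13.5%. Their median signal was high, at 8.944 to 9.018 in the Dgcr8 knockout arrays, against 6.48 over all probe sets. Their median difference was 0.03. Quantile normalization gave 53 and 36. Without Dgcr8 knockout array 1 the calls were 37 and 13. A gene and its near-identical pseudogenes can share probes on an array, so which copy gave the signal is uncertain for these genes, Hdac1 included.

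The amino acid stress response is the program in which uncharged tRNA or other stress leads to translation of the transcription factor Atf4, which then raises genes of amino acid synthesis and uptake. Its best known output was among the largest gains in Dicer knockout eggs. Asns was 5.05, 5.03 and 5.51 in the Dgcr8 knockout arrays and 9.17, 9.18 and 8.76 in the Dicer knockout arrays, with 5.55, 5.65 and 5.39 in wild-type eggs. The difference was 3.84 ± 0.16 (14.3-fold; limma adjusted p = 1.248e-06). Fgf21, a hormone of the fasting response, was 5.05, 5.02 and 4.76 against 7.23, 7.90 and 7.33 (2.55 ± 0.17, limma adjusted p = 1.524e-05). For both genes the wild-type and Dgcr8 knockout arrays lay in 1 low band and the Dicer knockout arrays stood apart from it.

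The rest of the program moved in part. Of 36 probe sets of the list, 8 were called higher and 1 lower (25.0% against 13.5% of all probe sets), with a median of 0.19. Vldlr, a lipoprotein receptor, rose by 1.32 ± 0.19, the mitochondrial serine enzyme Shmt2 by 1.08 ± 0.13, and Cth, which makes cysteine, by 0.88 ± 0.15. The smaller gains, named after their values were seen, were in Sesn2 at 0.58, Atf4 at 0.42 and Cebpg, an Atf4 partner, at 0.36. The fall was in Eif2ak2, the double-stranded RNA-activated kinase PKR, at -0.53 (limma adjusted p = 0.04602). That call was kept without Dgcr8 knockout array 3 or Dicer knockout array 3, and lost without any of the other 7 arrays, with an adjusted p up to 0.1567. The call of Sesn2 was lost without Dgcr8 knockout array 1 or 3, any Dicer knockout array or wild-type array 2, with an adjusted p up to 0.1357. Other well-known Atf4 targets did not pass the test: Chac1 had a difference of 0.32 (interval 0.11 to 0.54), Ddit3 0.34 (0.01 to 0.67) and Trib3 0.05 (-0.12 to 0.22). For Phgdh and Psat1, enzymes of serine synthesis, the values were -0.11 and 0.32, also without a call.

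Some amino acid carriers rose as well. Of 27 transporter probe sets, 5 were called higher and 0 lower (18.5%), near the 13.5% of all probe sets, with a median of 0.01. With the filter at a signal of 6, 13 transporter probe sets remained, 3 of them called higher. Slc7a3, a carrier of cationic amino acids, was 4.59, 4.50 and 4.25 in the Dgcr8 knockout and 7.53, 7.26 and 7.06 in the Dicer knockout (2.83 ± 0.15, limma adjusted p = 3.847e-06). Slc7a8, a carrier of neutral amino acids, rose by 1.31, Slc1a5, a glutamine carrier, by 1.27, Slc38a2, known for its rise in amino acid shortage, by 0.89, and Slc3a2, the shared heavy chain of several carriers, by 0.46. Each of the 5 had no overlap between the knockouts. Of 22 probe sets of tRNA charging enzymes, 3 were called higher and 1 lower (18.2%), near the 13.5% of all probe sets. These were Mars1 at 0.52, Aimp2 at 0.40 and Gars at 0.30, and Farsb at -0.23. Those 4 calls became 1 without Dgcr8 knockout array 1, and 2 without Dgcr8 knockout array 2 or Dicer knockout array 1, and quantile normalization gave 3 higher and 2 lower.

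**Figure D4:**
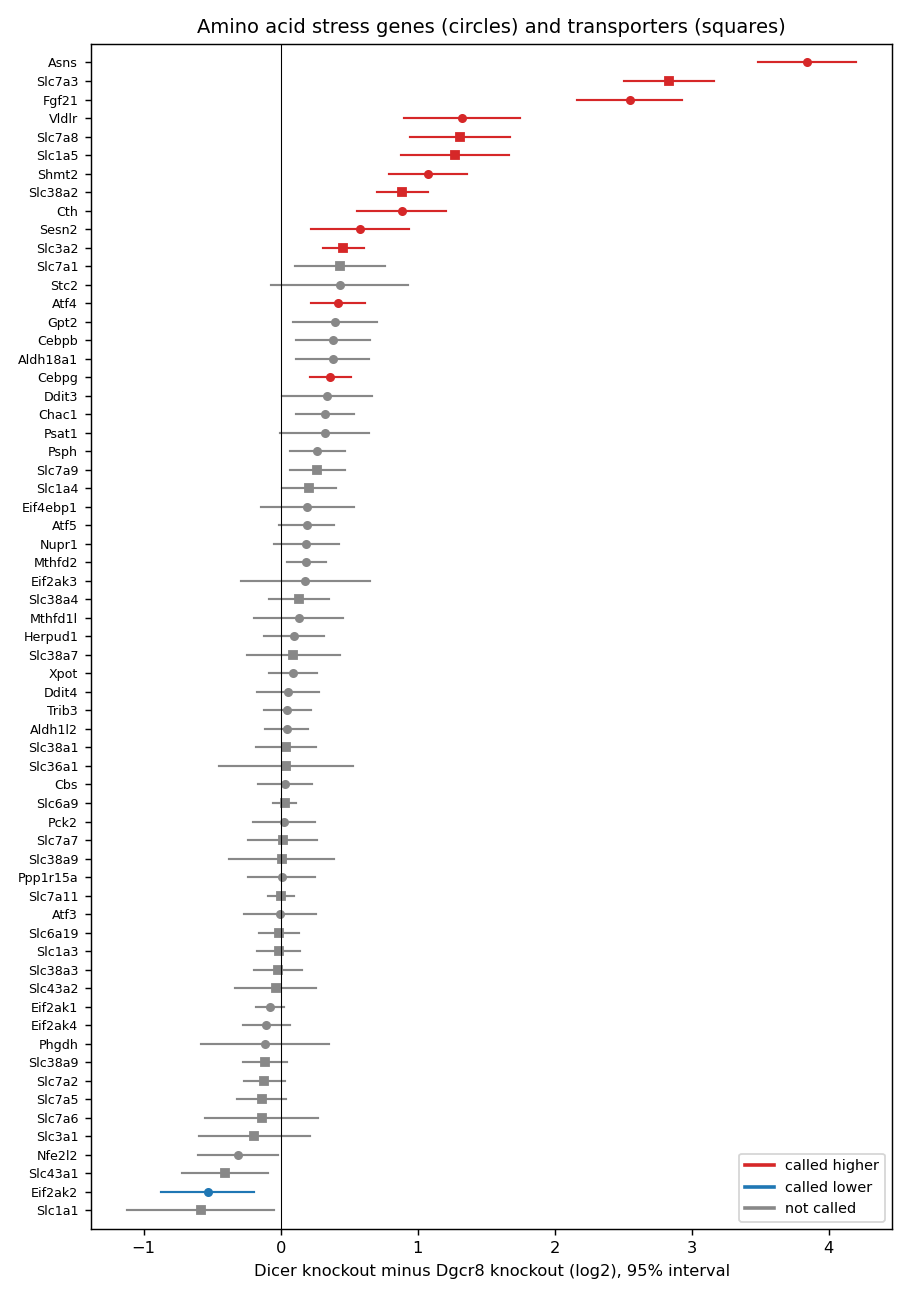
Dicer knockout minus Dgcr8 knockout difference (log2, limma, with 95% interval) for the 36 probe sets of amino acid stress genes (circles) and 27 of amino acid transporters (squares); red was called higher, blue lower, grey not called. Asns at 3.84, Slc7a3 at 2.83 and Fgf21 at 2.55 stand apart, and most other genes lie near 0.

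The upstream sequence of Asns and Fgf21 is shown because Atf4 is known to bind, with a C/EBP partner, a composite element whose core letters were searched here as TGATGNAA on both strands, with no other motif searched. The 250 bases before the RefSeq start site are given 5′ to 3′ in the direction of the gene (GRCm38.p6), with the match in capitals. Asns lies at chr6:7693210-7693459 and Fgf21 at chr7:45615491-45615740, both on the minus strand.
Asns: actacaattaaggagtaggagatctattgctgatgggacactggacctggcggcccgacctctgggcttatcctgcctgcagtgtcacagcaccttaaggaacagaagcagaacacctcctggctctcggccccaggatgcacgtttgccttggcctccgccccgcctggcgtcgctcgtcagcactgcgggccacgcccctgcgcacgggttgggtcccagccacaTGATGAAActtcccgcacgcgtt
Fgf21: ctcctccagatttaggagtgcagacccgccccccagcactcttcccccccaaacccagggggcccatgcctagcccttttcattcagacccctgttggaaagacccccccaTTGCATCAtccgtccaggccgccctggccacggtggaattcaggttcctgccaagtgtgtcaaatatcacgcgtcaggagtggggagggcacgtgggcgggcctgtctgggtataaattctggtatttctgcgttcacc
The match began 23 bases before the Asns start, on the gene's own strand, as TGATGAAA. In Fgf21 it read TGATGCAA on the opposite strand, so that the printed strand shows its reverse complement, and its position was -139. Vldlr, at its second start, and Gars also held a match, at -200 and -30. The letters occur in 3.45% of all 32851 promoters of the table and in 2.64% of the 13583 tested genes with a promoter there. Among the amino acid genes with a promoter there, they occur in 4 of 13 called higher (30.8%) and in 8 of 54 not called higher (14.8%). These lists hold known Atf4 targets and were chosen with earlier results of these data known. Their shares are therefore no independent evidence of a link to Atf4. Among all genes called at least 2-fold higher the share was 3.21% (8 of 249), near that of all promoters. A match describes letters only, and binding was not measured.

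In the small RNA pathways, the targeted genes and Tsnax had the largest called differences. Of 31 probe sets, 3 were called higher and 5 lower (25.8% against 13.5% of all probe sets), with a median of -0.11. These calls include the targeted genes Dgcr8 and Dicer1, whose differences the genotypes set. Signal was high for this list, with a median of 8.677 to 8.804 in the Dgcr8 knockout arrays, against 6.48 over all probe sets. Beside Dgcr8, the gains were Tsnax (Trax), a subunit of the translin nuclease complex, and Srrt (Ars2), a cap-binding partner of primary transcripts. Tsnax was 9.01, 8.84 and 9.30 against 10.54, 10.32 and 10.37 (1.36 ± 0.13, limma adjusted p = 0.0001468), with no overlap between the knockouts, and Srrt rose by 0.58. Beside Dicer1, the losses were small, with Tut7 at -0.42, Ddx17 at -0.40, Eri1 at -0.39 and Snd1 at -0.37. The call of Tut7 was lost without Dgcr8 knockout array 3, and that of Eri1 without Dgcr8 knockout array 1 or 3. Drosha (-0.14, interval -0.34 to 0.05), Xpo5, the exporter of hairpins (-0.06, -0.31 to 0.18), and Ago2, the slicing Argonaute (0.20 and 0.05 on its 2 probe sets), did not pass the test.

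Well-known microRNA targets were called in both directions. Of 35 probe sets, 3 were called higher and 7 lower (28.6% against 13.5% of all probe sets), with a median of -0.03. Stat3, a transcription factor of cytokine signalling, rose by 1.27 ± 0.09, from 9.52, 9.40 and 9.50 to 10.88, 10.56 and 10.79. The chromatin protein Hmga2, a let-7 target, rose by 0.64. Bcl2l11 (Bim), a death gene, differed by -0.81, Map3k1 by -0.69 and the retinoblastoma relative Rbl1 by -0.56. The 10 calls became 5 without Dgcr8 knockout array 1 or 3 or Dicer knockout array 1, and 6 without Dicer knockout array 3, where Map3k1 lost its call.

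Most of the called sensors of double-stranded RNA were lower in the Dicer knockout. Of 29 probe sets, 2 were called higher and 5 lower (24.1% against 13.5% of all probe sets), with a median of -0.005. Ddx60, a helicase of antiviral sensing, was 7.20, 6.40 and 6.56 in the Dgcr8 knockout and 4.87, 4.87 and 4.77 in the Dicer knockout (-1.88 ± 0.23, limma adjusted p = 0.0006608). Tlr3, the endosomal receptor, was 6.91, 6.73 and 6.99 against 6.10, 6.13 and 6.13 (-0.76 ± 0.12). In both, the Dicer knockout arrays lay close together and below all other arrays. Oas1b, a 2′-5′ oligoadenylate synthetase relative, differed by -0.66 and Ddx58 (RIG-I) by -0.37, while Oas3 rose by 0.65. Among the arrays whose omission ended the calls of Ddx58 and Oas3 were Dgcr8 knockout arrays 1 and 2 and Dicer knockout array 1; for Ddx58, Dicer knockout array 3 and wild-type arrays 1 and 2 were added. The 7 calls became 3 without Dgcr8 knockout array 1 or 2 or Dicer knockout array 1, and 4 without wild-type array 1 or 2. With quantile normalization 1 was higher and 6 lower.

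Spindle genes were called in both directions. Of 71 probe sets of the Ran cycle and the spindle, 7 were called higher and 9 lower (22.5% against 13.5%), with a median of -0.02. The list's median signal was high, at 9.938 to 9.992 in the Dgcr8 knockout arrays, so the shares are not matched for signal. Quantile normalization raised the lower calls to 19, and the total of 16 became 10 without Dgcr8 knockout array 1 or 2. Ran itself, the GTPase on which Rangap1 acts, was 8.72, 8.94 and 9.16 against 10.05, 9.89 and 9.74 (0.95 ± 0.13, limma adjusted p = 0.001013). Prc1, a bundler of midzone microtubules, rose by 0.59, and the depolymerizing kinesin Kif2c by 0.51. Among the losses, named after their values were seen, was Sgo2a, the guardian of centromeric cohesin, at -0.58. Aurka, a spindle pole kinase, differed by -0.29. Of 17 tubulin probe sets, 3 were called higher and 1 lower (23.5% against 13.5% of all probe sets). Their median signal was high, at 9.324 to 9.466 in the Dgcr8 knockout arrays, against 6.48 over all probe sets. Tuba1a rose by 2.01, Tubb5 by 0.53 and Tubb2a by 0.40, and Tube1 differed by -0.45 (limma adjusted p = 0.03834). The Tube1 call was kept without wild-type array 3 or Dicer knockout array 3, and lost without any of the other 7 arrays and with only the 6 knockout arrays, with an adjusted p up to 0.1194. Tuba1a, 7.06, 6.94 and 7.13 against 9.18, 9.02 and 8.96, is close in sequence to other alpha-tubulins, and its signal may be shared with them.

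Many transcripts of the ribosome and of respiration rose in the Dicer knockout. Of 216 probe sets of cytosolic ribosomal proteins (60 genes), 90 were called higher and 0 lower, for 26 genes, with a median difference of 0.62. Of 107 probe sets of respiratory chain genes (82 genes), 44 were called higher and 1 lower, for 33 genes higher, with a median of 0.48. These shares, 41.7% and 42.1%, stand beside 13.5% called and a median of -0.02 over all probe sets. Rpl27a was read by several probe sets, which differed by 1.47 to 2.26. Among respiratory genes Atp5mpl, a small subunit of ATP synthase, was 9.65, 9.45 and 9.24 against 11.68, 11.57 and 11.54 (2.15 ± 0.13), and the complex I subunits Ndufa6 and Ndufa3 rose by 1.70 and 1.62. Cox7a2 of complex IV rose by 1.46.

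The size of these gains differed among the 3 Dicer knockout arrays. The median deviation of the ribosomal probe sets from the Dgcr8 knockout mean was 0.93, 0.45 and 0.26 in Dicer knockout arrays 1, 2 and 3, and -0.11, -0.01 and 0.12 in the Dgcr8 knockout arrays. For the respiratory chain it was 0.81, 0.60 and 0.19, against -0.05, -0.03 and 0.08. By this median every Dicer knockout array was above every Dgcr8 knockout array, and array 1 was farthest. Wild-type arrays varied too. The median signal of the respiratory list was 8.329 to 8.915 in wild-type eggs and 8.885 to 9.521 in the Dicer knockout, which overlap. For the ribosomal list it was 8.923 to 9.322 in wild-type eggs and 9.370 to 10.220 in the Dicer knockout. Without Dicer knockout array 1 the median difference of the ribosomal list was 0.38, with 49 calls. The calls were also 49, 51 and 59 without Dgcr8 knockout arrays 1, 2 and 3, and 52 without Dicer knockout array 2. Ribosomal protein genes have many near-identical pseudogenes, so their probe sets are partly repeats of one another and the gene behind a signal is uncertain.

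**Figure D5:**
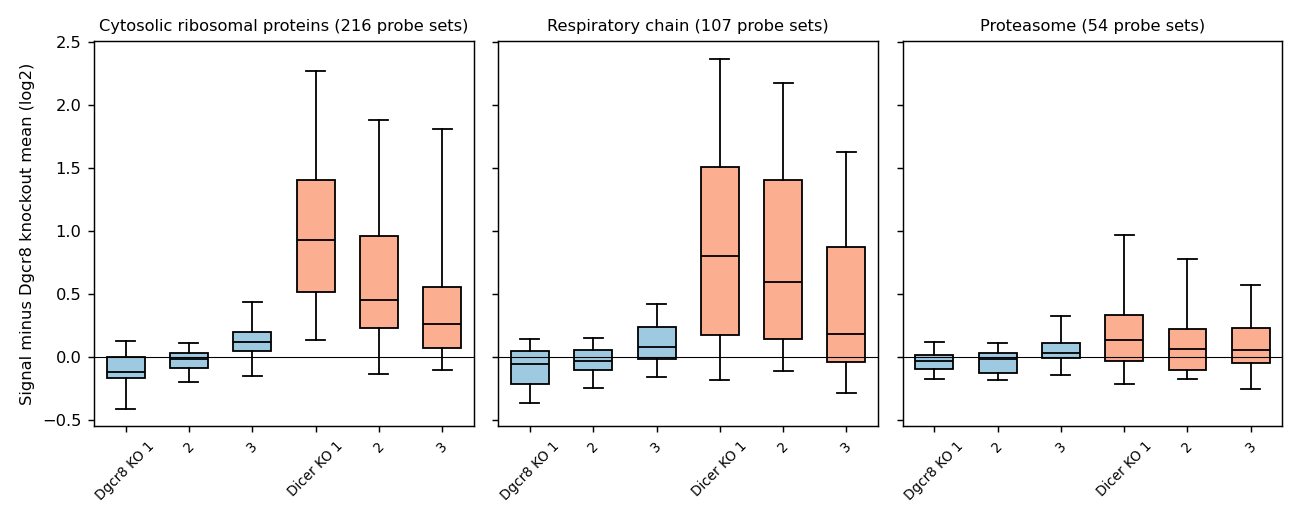
Deviation of log2 signal from the Dgcr8 knockout mean in each of the 6 knockout arrays, for cytosolic ribosomal protein, respiratory chain and proteasome probe sets; boxes give the quartiles and median, whiskers the central 90% of probe sets, blue for Dgcr8 knockout (KO) and orange for Dicer knockout. The ribosomal and respiratory medians are above 0 in all 3 Dicer knockout arrays and highest in array 1, at 0.93 and 0.81.

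The proteasome showed a smaller shift. Of its 54 probe sets 10 were called higher and 1 lower (20.4% against 13.5% of all probe sets), with a median of 0.10. Signal was high for this list, with a median of 9.602 to 9.890 in the Dgcr8 knockout arrays, against 6.48 over all probe sets. Psmb5, a catalytic subunit, had a difference of 1.35, a call lost without Dgcr8 knockout array 1 or Dicer knockout array 1, and Psmb4 of 0.83. With quantile normalization 9 were higher and 3 lower. The 11 calls became 4, 6 and 7 without Dgcr8 knockout array 1, Dgcr8 knockout array 2 and Dicer knockout array 1. Of 77 probe sets of mRNA decay and storage, 15 were called higher and 10 lower (32.5% against 13.5%), with a median of -0.04. This list too had a high median signal, at 9.275 to 9.450 in the Dgcr8 knockout arrays. Lsm4, of the ring that binds decapped mRNA tails, was 6.87, 6.97 and 7.01 against 8.21, 8.84 and 8.22 (1.47 ± 0.17), and the exosome subunit Exosc9 rose by 1.21. The deadenylase Cnot6 differed by -0.76, the translational regulator Cpeb4 by -0.63 and the decay kinase Smg1 by -0.59. Without Dgcr8 knockout array 1 or 2 or Dicer knockout array 1 the 25 calls became 14, 15 and 16, and quantile normalization gave 14 higher and 19 lower.

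Chromatin genes gave few large differences. Of 59 probe sets of gene silencing, 5 were called higher and 7 lower (20.3% against 13.5% of all probe sets), with a median of -0.04. The list's median signal was 8.207 to 8.282 in the Dgcr8 knockout arrays, against 6.48 over all probe sets. Beside Hdac1, the largest was Tet1, which oxidises methylcytosine, at 7.12, 6.94 and 6.95 against 6.12, 5.52 and 5.99 (-1.13 ± 0.17, limma adjusted p = 0.002327). Its other probe sets, at lower signal, differed by 0.03 and -0.16. Tet2 rose by 0.62, and the probe sets of Tet3, the form most abundant in eggs, differed by -0.19 and -0.27. These 3 calls were each lost without some arrays, with an adjusted p up to 0.1395 for Tet2 without Dicer knockout array 1. For the Tet3 probe sets the arrays were Dgcr8 knockout array 3 or Dicer knockout array 3, and Dgcr8 knockout array 1 or 2 or Dicer knockout array 1, and for Tet2 they were every Dgcr8 knockout array, Dicer knockout arrays 1 and 3 and wild-type array 3. Hells, a chromatin remodeller, and Suz12, a Polycomb subunit, differed by -0.35 and -0.24. The 12 calls became 6 without Dgcr8 knockout array 1 or 2 or Dicer knockout array 1, and 7 without Dgcr8 knockout array 3. With quantile normalization 3 were higher and 10 lower.

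Genes that define the egg were high in both knockouts. Of 55 probe sets of oocyte genes, 5 were called higher and 3 lower (14.5%), near the 13.5% of all probe sets, with a median of 0.05. The list's median signal was 11.162 to 11.344 in the Dgcr8 knockout arrays, against 6.48 over all probe sets. Gdf9 and Bmp15, the growth factors that eggs secrete, had means of 12.39 and 12.36 in the Dgcr8 knockout and 12.48 and 12.35 in the Dicer knockout, and neither was called. Khdc3 (Filia), of the subcortical maternal complex, rose by 1.43, Oog4 by 0.54, and the zona pellucida genes Zp3 and Zp2 by 0.49 and 0.47. Khdc3 lost its call without Dgcr8 knockout array 1 or 2 or Dicer knockout array 1, and Zp3 without any Dgcr8 knockout array or Dicer knockout array 1 or 2. The receptor Kit, at 11.21, 11.03 and 11.11 against 10.74, 10.80 and 10.62, differed by -0.40, and Nlrp9c and Nlrp9a by -0.31 and -0.21. The 8 calls became 5 without Dgcr8 knockout array 1 or 2 or Dicer knockout array 1, and 13 without Dicer knockout array 3. With quantile normalization 5 were higher and 8 lower.

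Few markers of the cells that surround eggs were called. Of 23 cumulus and granulosa probe sets, 0 were called by limma, and 4 had an unadjusted p under 0.05. These were Gata4 at 0.44, Nr5a2 at -0.40, Cyp11a1 at -0.33 and Has2 at -0.31. The summed linear signal of this list was 1822 to 1979 in the Dgcr8 knockout, 1662 to 1900 in the Dicer knockout and 1791 to 1890 in wild-type eggs. Among 17 oviduct markers Myh11, smooth muscle myosin, was lower (-0.48), with summed signals over the list of 3569 to 3721 in the Dgcr8 knockout and 3257 to 3268 in the Dicer knockout. Among 10 immune and blood markers Cd68 was higher (0.68, limma adjusted p = 0.04931, lost in several alternatives), with summed signals over the list of 1538 to 1671 in the Dgcr8 knockout and 1479 to 1685 in the Dicer knockout. Without Dicer knockout array 1 or 2, 1 cumulus and granulosa marker was called, and without Dicer knockout array 2, 2 oviduct markers. In these bulk samples fewer cells of a type and less RNA per cell cannot be told apart. The part of these cells in the results above was not tested.

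Mt1, a zinc-binding metallothionein, was high in both knockouts. It was 11.46, 11.53 and 11.46 in the Dgcr8 knockout and 11.44, 11.66 and 11.73 in the Dicer knockout, while wild-type eggs read 7.95, 8.07 and 8.16. The difference between the knockouts was 0.13 ± 0.08 with a 95% interval from -0.05 to 0.31 (limma adjusted p = 0.3789). Mt2 differed by 0.26, with an interval from -0.08 to 0.61. Of 31 probe sets of zinc storage and transport, 0 were called higher and 2 lower (6.45% against 13.5% of all probe sets). The 2 were the zinc importer Slc39a10 at -0.25 and Mtf2, named as a metal response factor but known as a Polycomb partner, at -0.33. Over all 18818 probe sets the median half-width of the interval was 0.23, and 92.8% of the intervals lay within 1 of 0.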

How the data were processed

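The values analysed are the log2 signals of 35557 probe sets in 9 arrays, deposited by the authors. GCRMA made these values, per the submitters' processing notes. It corrects background by probe sequence, normalizes between arrays and summarises each probe set. The sources used here do not give its version. Symbols came from the platform annotation, with 1 symbol for 21789 probe sets, several for 1621 and none here for 12147. Nothing was normalized again. Probe sets were kept at a signal of 4 or more in at least 3 of the 6 knockout arrays. All 9 arrays entered a single limma 3.58.1 fit (R 4.3.3, statmod 1.5.0), with trend and robust eBayes, two-sided, and Benjamini-Hochberg adjustment over 18818 probe sets, and no covariate. Replicate numbers were not used as pairs. The deviations of same-numbered arrays correlated between -0.25 and 0.07. With 3 arrays a group these values cannot show whether the numbers mark a batch. Tested on simulated data with 200 of 18818 probe sets changed, the fit recovered 44.8% of changes of 0.5, 83.6% of 1 and 98.5% of 2 (log2). It made 9 false calls. The simulated noise was independent between probe sets, and fewer were changed than the 2549 called here. These rates may therefore not carry over to the real arrays.

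The probe sets named are the 20 largest increases and 15 largest decreases among those called without overlap, skipping predicted and clone names, plus the targeted genes, Tstd3, Asns, Mir31, Mt1, Mt2, every called microRNA gene and, from every list, the 5 members with the smallest adjusted p, called ones first. The members and lists were chosen with earlier results of these data known. A list is described by its counts and median, with no test of the list. Alternatives changed the filter, scaling, arrays, moderation, weights, replicate block, probe set choice and threshold.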

Additional observations from a re-analysis of the deposited data

Results flagged for a closer look

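Probe sets outside the comparison also separated the knockouts. Of 1248 tested probe sets whose annotation lists several symbols, 270 were called by limma (21.6%), 213 higher and 57 lower in Dicer knockout eggs. Of 6893 tested probe sets unnamed here, 520 were called (7.54%), 354 higher and 166 lower. In the same fit over all probe sets, those with 1 symbol were called in 11.5%. What these probe sets read was not tested.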

How the results depend on the processing

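Of 138 called probe sets that the naming rule gives, 26 lost the call in at least 1 of the 20 alternatives, and 0 reversed. The other 112 kept their call and direction in every alternative that tested them. The filter at a signal of 6 and the choice of 1 probe set per gene left some named probe sets untested. The counts of 1123 higher and 1426 lower calls became 633 and 609 at an adjusted p under 0.01. With only the 6 knockout arrays there were 875 lower calls. Over all probe sets of the table, named or not, 26959 were tested, and 599 were called at least 2-fold higher and 124 lower. The main fit had 380 and 108 of 18818. Leaving out each array in turn gave 777 to 1123 higher calls, 856 to 1355 lower calls, 323 to 433 at least 2-fold higher and 95 to 149 at least 2-fold lower. With the replicate block the counts were 1052 higher and 1235 lower, and 377 and 112 at 2-fold, and 7 named calls were lost. Quantile normalization gave 1090 higher and 2071 lower calls. The cause of these shifts was not tested. A call lost at 3 arrays a group does not show that values were equal. The number of arrays limits the precision.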

Other observations

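Further gene groups were read by the same counts. Of 39 histone probe sets, 8 were called higher and 0 lower (20.5% against 13.5% of all probe sets, median 0.07). Among those with the smallest adjusted p, the linker histone H1f2 rose by 1.70 and the variant H2ax, known for marking broken DNA, by 1.67. The largest difference on the list, 2.33, was on a probe set not named here. The 8 calls became 5 without Dgcr8 knockout array 1 or 2 or Dicer knockout array 2. Of 36 probe sets of p53 and DNA damage genes, 4 were called higher and 5 lower (25.0% against 13.5%, median -0.08), with Mdc1 at 0.58, Gadd45a at 0.48 and Trp53bp1 at -0.54. Those 9 calls became 4 without Dgcr8 knockout array 1 or Dicer knockout array 2, and 5 without Dgcr8 knockout array 3 or Dicer knockout array 1. Of 50 probe sets of metabolism, 2 were called higher and 6 lower (16.0%, near the 13.5% of all probe sets). The lipid droplet coats Plin2 and Plin3 rose by 1.02 and 0.94, and the sterol enzyme Idi1 differed by -0.61 and -0.57 on its 2 probe sets. Those 8 calls became 5, 4 and 5 without Dgcr8 knockout array 1, Dgcr8 knockout array 3 and Dicer knockout array 1. Of 34 probe sets of meiotic control, 2 were called higher and 3 lower (14.7%, near the 13.5% of all probe sets). Fbxo5 (Emi1), an inhibitor of the anaphase-promoting complex, rose by 0.72, and Gpr3, the receptor that holds oocytes in arrest, was 10.24, 10.35 and 10.19 in the Dgcr8 knockout and 9.78, 9.86 and 9.66 in the Dicer knockout (-0.50 ± 0.07). With quantile normalization 2 were higher and 5 lower, and the 5 calls became 3 without Dgcr8 knockout array 1 or 3.

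Genes called at least 2-fold were placed along the chromosomes, with no background share computed for pairs. Of 17166 pairs of tested genes next to each other in the RefSeq order (GRCm38.p6), 17 had both genes called at 2-fold or more, 9 with both higher, 0 with both lower and 8 in opposite directions. Radx lies beside Rnf128, a ubiquitin ligase, with differences of 4.02 and 1.08. Nrg3 and Sh2d4b rose by 2.35 and 2.30, Cpb1 and Tbl1xr1 by 2.32 and 2.00, and Dynlt3 and Sytl5 by 1.29 and 2.31. Btg1b and Rhox10 were opposite, at -1.76 and 2.80. These pairs were chosen after their values were seen.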
